A study of Mus musculus with 24 samples.

Results

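Transcript levels of 51 mouse genes whose products remove messenger RNA were measured by RNA-seq in 24 cultures of Neuro2A, a neuroblastoma line of the mouse. The genes were chosen by name, as subunits and partners of the mRNA decay machinery, and a gene was retained if at least 3 samples reached 0.5 CPM (counts scaled to library size). All 51 of the 51 named genes passed, among 13901 genes that passed of 39253 listed. By role they comprise 11 genes of the CCR4-NOT deadenylase, 2 of the PAN2-PAN3 deadenylase, 13 of decapping and its activators, 2 exonucleases that digest RNA from the decapped end, 11 of the exosome, 2 of the SKI complex, 8 of nonsense-mediated decay and 2 of ribosome rescue.

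The samples fall into 8 groups of 3, described by the authors as biologically independent. In 6 groups the cells were transfected with an RNA-cutting CRISPR effector and a crRNA and were collected at 48 hr: RfxCas13d, its high-fidelity form HiFi-RfxCas13d, or DiCas7-11, each with the crRNA that targets mouse ataxin-2 mRNA (mATXN2) or with a non-targeted (NTG) crRNA. A further group was left untransfected, and the last received an antisense oligonucleotide (ASO) to ataxin-2. The labels do not say how the ASO was delivered or what share of cells took up a plasmid, and the RNA came from whole cultures. In the deposited table the control arm carries a code that can mean an empty vector, so it is not settled that it received the NTG crRNA, and the targeting arm carries a guide number other than that in the sample titles, so which guide it received is not settled either. The names NTG and mATXN2 follow the sample labels. The paper likewise describes its RNA-seq arms as an NTG crRNA and a targeting crRNA with the guide number of the sample titles. Groups given an effector differ from the untransfected cells in transfection, in effector and in any crRNA at once, and these cannot be told apart.

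Most cytoplasmic mRNAs are removed in a fixed order: the PAN2-PAN3 and CCR4-NOT complexes shorten the poly(A) tail, DCP2 and its activators take off the cap, and XRN1 digests the body from the uncapped end, while the exosome and its SKI cofactor digest it from the tail end. Nonsense-mediated decay is a surveillance branch in which UPF1 marks transcripts with an early stop codon, SMG6 cuts them and SMG5 helps to recruit the decay enzymes, and PELO with HBS1L frees ribosomes that have stalled on damaged mRNA. RNA fragments made by a CRISPR effector or by RNase H are substrates for exonucleases of this kind.

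The libraries held 12665725 to 22504999 counts, with the highest totals in the ASO samples (21874644 to 22504999, against at most 19857305 elsewhere). The NTG samples of DiCas7-11 differed more among themselves than other replicates, with a chi-square per gene of 3.33 to 5.58 times counting noise against 1.68 to 2.55 in the other 7 groups. Atxn2 itself stood at 123 ± 1.78 CPM (SD, n = 3) in untransfected cells and 52.0 ± 2.77 CPM with the ASO. Its log2 change with the mATXN2 crRNA was −0.10 with RfxCas13d, −0.23 with HiFi-RfxCas13d and −0.20 with DiCas7-11 (edgeR adjusted p = 0.178, 0.00157 and 0.00557), so that it did not pass with RfxCas13d. The line's identity was checked on 10 neuroblast and neuron genes, of which 9 passed the filter, and their summed level was 1100 to 1220 CPM in every library. Markers of other cells summed to at most 8.48 CPM (fibroblast), 10 CPM (endothelial), 2.42 CPM (macrophage) and 0.62 CPM (astrocyte), with Adgre1 and Aqp4 at 0 in every library. The macrophage list was highest in the ASO samples (1.07 to 2.42 CPM against at most 0.835 elsewhere), through Cd68, which other cells also express. The fibroblast list was highest in untransfected cells, at 8.1 to 8.48 CPM against 5.48 to 6.19 with the ASO, 5.73 to 6.84 with HiFi-RfxCas13d NTG, 5.7 to 6.72 with DiCas7-11 NTG and 5.16 to 8.18 with RfxCas13d NTG, and 1 of its 2 tested genes passed as lower with HiFi-RfxCas13d NTG and with the ASO. Pecam1, the endothelial marker that was tested, passed as lower with DiCas7-11 NTG (log2 -0.43). The part of these markers in the results below was not tested.

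In untransfected cells the decay genes covered a wide range of levels per length of transcript, from 115 to 2.49 CPM per kilobase. The highest was Lsm5 at 115 CPM per kilobase (3 samples, 109 to 123), a subunit of the ring that binds the ends of deadenylated mRNAs in the cytoplasm and U6 RNA in the nucleus. Cnot6, a catalytic deadenylase of CCR4-NOT, came next at 99.0 CPM per kilobase (94.6 to 103). At the low end stood the decapping cofactors Dcp1a at 3.62 and Dcp1b at 2.49 CPM per kilobase, and the samples of these genes did not overlap. Lengths are those of 1 GENCODE transcript per gene, so these levels are approximate for genes that use other isoforms.

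**Figure D1:**
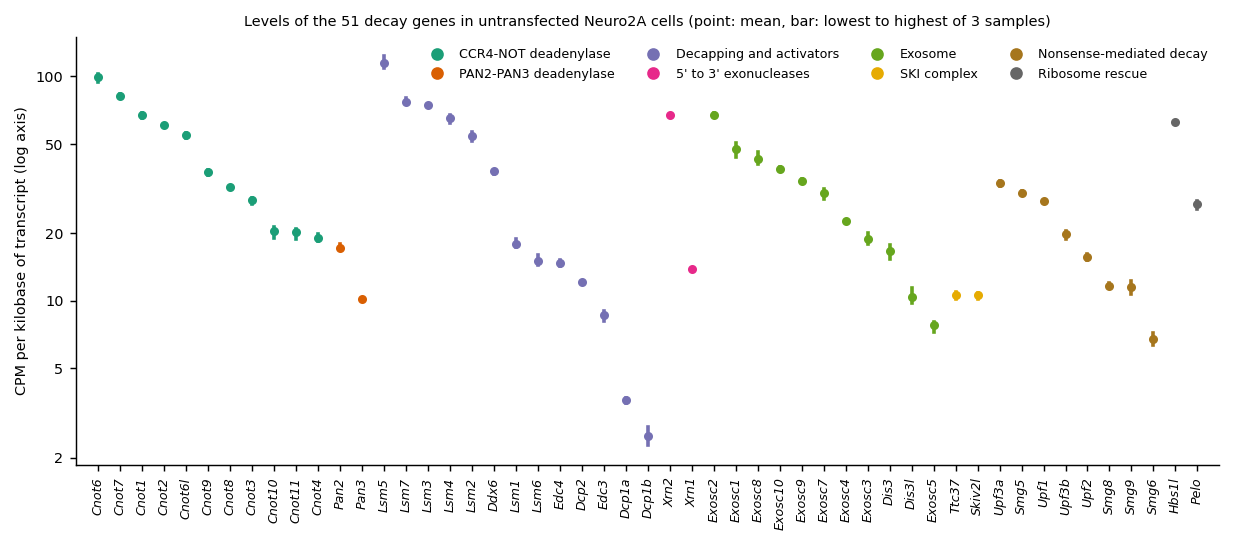
Level of each decay gene in untransfected cells in CPM per kilobase of transcript, on a log axis, ordered by role. Points are means and bars run from the lowest to the highest of 3 samples; Lsm5 is at the top with 115 and Dcp1b at the bottom with 2.49 CPM per kilobase.

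Within the complexes the highest and lowest members were far apart per length. In CCR4-NOT, Cnot6 was the highest and Cnot4, an E3 ubiquitin ligase of the complex, the lowest at 19.1 CPM per kilobase. In the exosome, the RNA-binding cap subunit Exosc2 was the highest at 67.1 and the ring subunit Exosc5 the lowest at 7.77 CPM per kilobase. In nonsense-mediated decay, by the lengths used, Upf3a was the highest at 33.5 and the endonuclease Smg6 the lowest at 6.73 CPM per kilobase. Pan2 stood at 17.2 against 10.2 for its partner Pan3, Hbs1l at 62.9 against 27.0 for Pelo, and the SKI genes Ttc37 and Skiv2l were level at 10.6 and 10.6 CPM per kilobase, with overlapping samples. The nuclear exonuclease Xrn2 was at 67.5 CPM per kilobase against 13.8 for its cytoplasmic relative Xrn1.

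By the transcript lengths used, paralogs had unequal levels in all 8 groups. The per-length ratio of Cnot6 to Cnot6l had group means of 1.71 (DiCas7-11 mATXN2) to 1.84 (HiFi-RfxCas13d mATXN2), with 1.81 ± 0.0303 in untransfected cells and 1.79 ± 0.0833 with the ASO (SD, n = 3). For the exchangeable deadenylases Cnot7 and Cnot8 the ratio was 2.54 to 2.74, for Upf3a and Upf3b 1.68 to 1.79, for the exosome nucleases Dis3 and Dis3l 1.41 to 1.71, and for Dcp1a and Dcp1b 1.46 to 1.83. Xrn1 stood at 0.197 to 0.229 of the level of Xrn2. These ratios are descriptions and were not tested. They rest on 1 GENCODE transcript per gene and change with the transcript chosen. For Upf3a and Cnot6l the lengths used were 2057 and 3170 bases, while their longest transcripts held 3598 and 8464 distinct 101-base stretches. Longer lengths for these genes would lower the ratio of Upf3a to Upf3b and raise that of Cnot6 to Cnot6l. Reads that several genes share can move such values: 101-base stretches of the transcripts recur in other genes for 36.1% of Pelo, 11.8% of Hbs1l, 10.8% of Lsm7, 7.45% of Cnot1, 4.95% of Cnot8, 3.65% of Lsm5, 2.26% of Ddx6 and 0.108% of Lsm6, mostly in predicted genes, and levels of these 8 genes are uncertain to that extent.

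Across all 8 groups the decay genes moved little. The ratio of the highest to the lowest group mean ran from 1.05 for the scaffold Cnot1 to 1.33 for Smg6. A single F test of any difference among the groups (edgeR's quasi-likelihood test, Benjamini-Hochberg adjustment) passed for 30 of the 51 genes, or 58.8%, against 50.3% of all genes tested. The lowest adjusted p-values were those of Cnot6 (3.24e-07), Smg5 (3.46e-07) and Exosc2 (1.24e-05). In the other direction, Cnot8 (0.672), Smg9 (0.665) and Exosc5 (0.568) gave the highest.

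**Figure D2:**
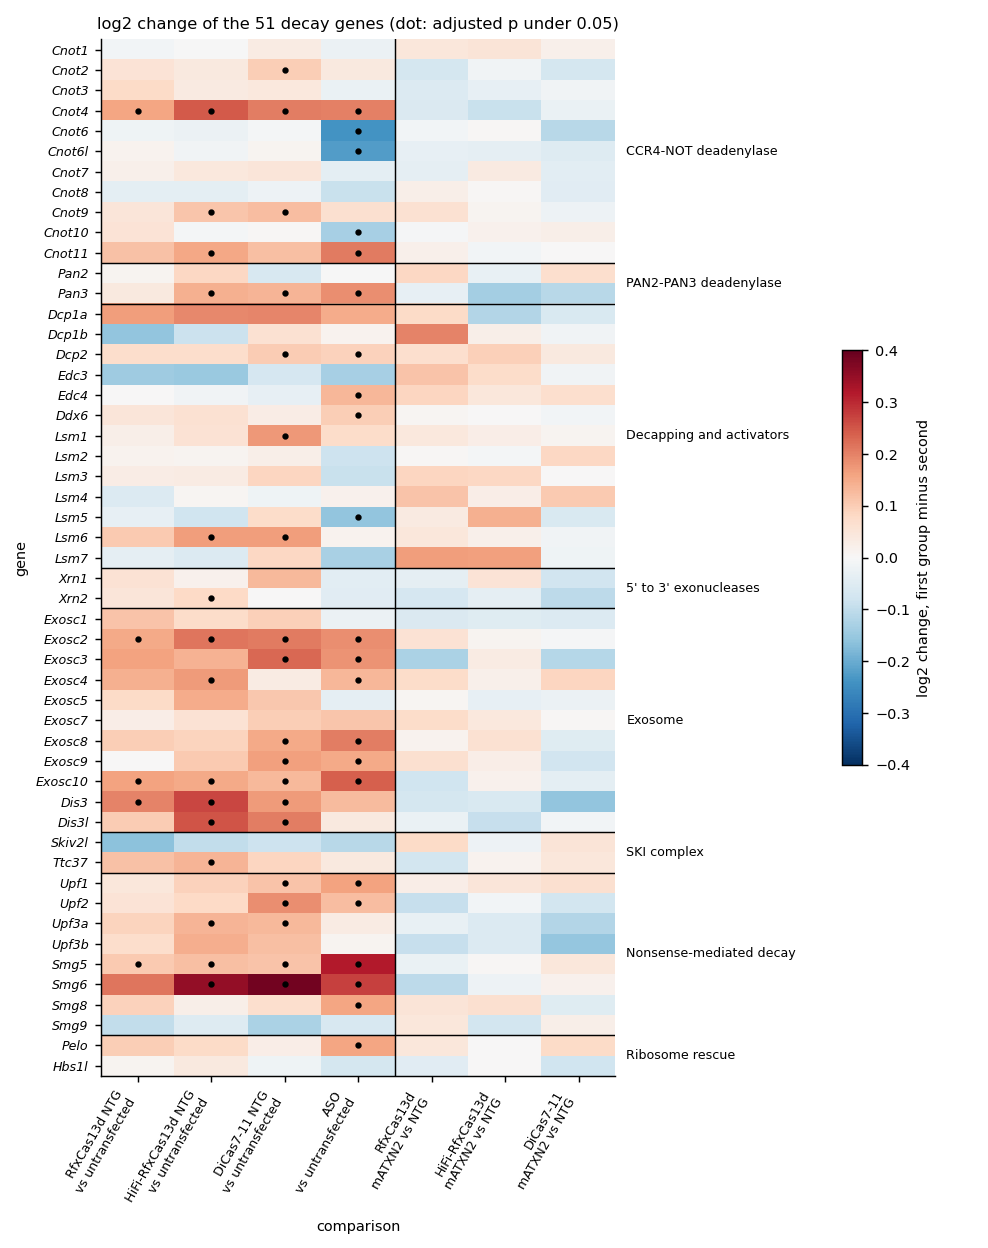
log2 change of each of the 51 decay genes, rows grouped by role, in the 4 comparisons with untransfected cells and the 3 comparisons of mATXN2 with NTG crRNA; a dot marks an adjusted p under 0.05. The 4 left columns hold 5, 15, 19 and 22 dots and the 3 right columns hold 0.

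The comparisons with untransfected cells ask what transfection with an effector, or the ASO, did to the decay machinery. With NTG crRNA, 5 decay genes rose with RfxCas13d, 15 with HiFi-RfxCas13d and 19 with DiCas7-11, and 0 fell in each. As a share of the 51 genes these rises are 9.8%, 29.4% and 37.3%, against 5.6%, 10.3% and 11.1% of all genes tested that rose, while 5.66%, 10.6% and 10.8% of all genes fell. At an unadjusted p under 0.05, 2, 1 and 0 decay genes were lower. DESeq2 called 6, 15 and 19 genes higher and limma-trend 6, 15 and 17, with 0 lower by either. With the ASO, 18 decay genes rose and 4 fell, 35.3% and 7.84% of the 51, against 21% and 21.7% of all genes. The median log2 change of the 51 genes was 0.054, 0.072, 0.095 and 0.038 in these comparisons, with medians over all genes of -0.0046, -0.0054, -0.0062 and -0.0021. All 4 comparisons share the untransfected samples, so they are not independent of each other. In bulk RNA, fewer cells of a kind and less RNA per cell cannot be told apart.

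Some of these counts depend on single libraries or on the fit. With DiCas7-11 NTG the count fell from 19 to 9 without DiCas7-11 NTG replicate 2, to 10 without untransfected replicate 1, and to 6 when only the 6 samples compared were fitted. Of the 19 genes called with DiCas7-11 NTG, Cnot4, Exosc2, Smg6 and Upf2 passed in all 14 alternatives, and the other 15 lost the call in at least 1, Upf1 in 9. Of the 5, 15 and 22 called with RfxCas13d NTG, HiFi-RfxCas13d NTG and the ASO, 2, 8 and 14 passed in all 14, and Exosc4 with the ASO lost its call in 9. With RfxCas13d NTG the count was 3 without RfxCas13d NTG replicate 3 or untransfected replicate 3, and 9 after a correction for coding length.

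Exosome genes rose in all 4 comparisons. Of the 11, 3 rose with RfxCas13d NTG, 5 with HiFi-RfxCas13d NTG, 7 with DiCas7-11 NTG and 6 with the ASO, and 0 fell. These counts, and those of the other classes below, stand beside 5.6%, 10.3%, 11.1% and 21% of all genes that rose. All 11 had a positive estimate in each NTG comparison, as did 9 of 11 with the ASO. The class medians were 0.12, 0.15, 0.15 and 0.13 on the log2 scale.

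Exosc2, a subunit of the cap through which RNA enters the exosome, stood at 111, 113 and 115 CPM in the 3 untransfected samples. It measured 125, 129 and 123 CPM with RfxCas13d NTG, 129.5, 129 and 135 with HiFi-RfxCas13d NTG, 129, 131 and 132 with DiCas7-11 NTG and 124, 131 and 132 with the ASO. No transfected or ASO sample overlapped the untransfected range. The log2 changes were 0.15 ± 0.031, 0.21 ± 0.031, 0.21 ± 0.031 and 0.19 ± 0.030 (SE), with edgeR adjusted p of 0.00152, 1.24e-05, 1.83e-05 and 1.06e-05. With the mATXN2 crRNA it stood at 129, 131 and 132, 130.3, 135 and 132 and 131, 132 and 127 CPM in the same order of effectors.

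Exosc10, the nuclear exonuclease of the complex, stood at 108, 107 and 110.4 CPM untransfected. The NTG samples lay above that range, at 123, 121 and 121 with RfxCas13d, 115, 123 and 123 with HiFi-RfxCas13d and 119, 123 and 113 with DiCas7-11, and the ASO samples were the highest at 125, 132 and 127 CPM. Its log2 changes were 0.16 ± 0.034, 0.15 ± 0.034, 0.13 ± 0.034 and 0.24 ± 0.033 (edgeR adjusted p 0.00191, 0.00178, 0.00620 and 9.29e-07).

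Dis3, the main catalytic subunit, was at 79.1, 90.9 and 87.2 CPM untransfected, 88.8, 102 and 103 with RfxCas13d NTG, 94.0, 106 and 109.6 with HiFi-RfxCas13d NTG and 91.7, 102 and 95.7 with DiCas7-11 NTG. The RfxCas13d samples overlapped the untransfected ones and the others did not. Dis3 rose by 0.20 ± 0.062, 0.27 ± 0.061 and 0.17 ± 0.062 (edgeR adjusted p 0.0360, 0.00211 and 0.0487), and its calls with RfxCas13d and DiCas7-11 were lost in 4 and 6 of 14 alternatives. With the ASO it was at 90.2, 93.3 and 97.5 CPM and the change of 0.13 ± 0.060 did not pass (adjusted p = 0.0881).

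Dis3l, its cytoplasmic relative, rose with HiFi-RfxCas13d NTG from 35.5, 40.9 and 34.8 to 43.0, 45.5 and 44.4 CPM (log2 0.25 ± 0.062, edgeR adjusted p = 0.00410) and with DiCas7-11 NTG to 45.7, 41.5 and 41.7 CPM (0.20 ± 0.063, adjusted p = 0.0194). The Dis3l call with DiCas7-11 NTG was lost in 4 of 14 alternatives. Exosc3, a cap subunit, rose with DiCas7-11 NTG from 21.6, 19.3 and 19.8 to 24.6, 24.3 and 22.2 CPM (0.23 ± 0.062, adjusted p = 0.00757) and with the ASO to 23.1, 22.8 and 22.8 CPM (0.18 ± 0.059, adjusted p = 0.0145). Exosc4, a ring subunit, passed with HiFi-RfxCas13d NTG (40.7, 40.7 and 40.6 untransfected, 43.9, 48.5 and 44.7 CPM, log2 0.17 ± 0.051, adjusted p = 0.0181) and with the ASO (43.3, 45.9 and 44.5 CPM, 0.13 ± 0.050, adjusted p = 0.0335). The ring subunits Exosc8 and Exosc9 passed with DiCas7-11 NTG and with the ASO. Exosc8 was at 53.1, 54.7 and 60.1 CPM untransfected and 66.1, 62.1 and 64.6 with the ASO (0.20 ± 0.050, adjusted p = 0.00141), and Exosc9 was at 54.7, 55.3 and 56.2 CPM untransfected and 56.9, 64.3 and 64.2 with DiCas7-11 NTG (0.16 ± 0.043, adjusted p = 0.00677). Exosc1, Exosc5 and Exosc7 passed in none of the 4 comparisons, with log2 changes of −0.034 to 0.15.

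Among the deadenylase genes, some rose and others fell. Of the 11 CCR4-NOT genes, 1, 3 and 3 rose with the NTG crRNA of RfxCas13d, HiFi-RfxCas13d and DiCas7-11, and with the ASO 2 rose and 3 fell. Cnot4, the ubiquitin ligase of the complex, stood at 64.0, 65.6 and 69.0 CPM untransfected, 71.9, 72.4 and 76.7 with RfxCas13d NTG, 80.9, 77.6 and 76.4 with HiFi-RfxCas13d NTG, 77.3, 74.1 and 77.3 with DiCas7-11 NTG and 75.1, 77.2 and 76.0 with the ASO, and none of these groups overlapped the untransfected samples. Its log2 changes were 0.16 ± 0.038, 0.24 ± 0.037, 0.20 ± 0.038 and 0.20 ± 0.036 (edgeR adjusted p 0.00583, 2.44e-05, 0.000224 and 4.16e-05). Cnot11, a scaffold-binding subunit, went from 72.4, 72.9 and 65.9 CPM untransfected to 79.0, 77.9 and 78.8 with HiFi-RfxCas13d NTG (0.15 ± 0.046, adjusted p = 0.0171) and 86.4, 77.6 and 80.4 with the ASO (0.21 ± 0.045, adjusted p = 0.000405). Cnot9, which binds RNA-binding proteins that recruit the complex, rose with HiFi-RfxCas13d and DiCas7-11 NTG by 0.11 ± 0.035 and 0.12 ± 0.035, and Cnot2, which pairs with CNOT3 in the complex, rose with DiCas7-11 NTG by 0.099 ± 0.028 (adjusted p = 0.0121).

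The CCR4-NOT genes that fell with the ASO include both catalytic deadenylases of the CCR4 type. Cnot6 stood at 543, 569 and 591 CPM untransfected and 470.1, 482 and 489.6 with the ASO, a change of -15.3% (log2 -0.24 ± 0.028, edgeR adjusted p = 7.06e-08). Its paralog Cnot6l was at 168, 175 and 178 CPM untransfected and 147, 155 and 144 with the ASO (-14.3%, log2 -0.22 ± 0.037, adjusted p = 1.43e-05). In each gene the 3 ASO samples were below every other sample of the experiment, as the plot of CPM by group shows. With NTG crRNA neither passed in any effector, with log2 changes of -0.017, -0.025 and -0.0069 for Cnot6 and 0.016, -0.014 and 0.010 for Cnot6l. Cnot10, the partner of Cnot11, fell from 54.3, 59.9 and 61.0 to 53.1, 53.6 and 53.0 CPM (-0.13 ± 0.048, adjusted p = 0.0251), and that call was lost in 7 of 14 alternatives. The other pair of CCR4-NOT nucleases, Cnot7 and Cnot8, gave -0.040 ± 0.027 and -0.091 ± 0.047 with the ASO and did not pass (adjusted p = 0.236 and 0.123).

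**Figure D3:**
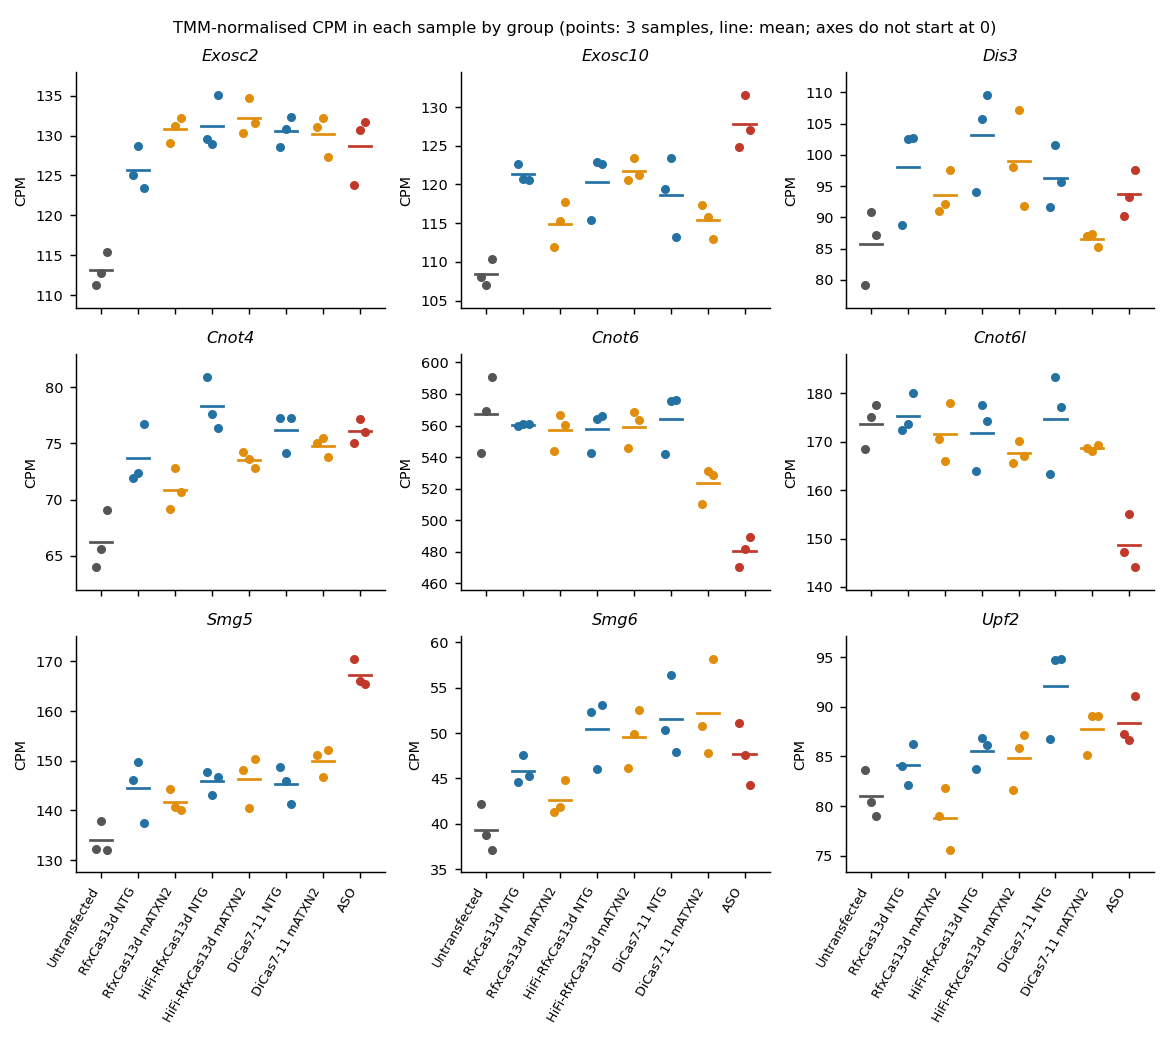
CPM of 9 decay genes in each of the 24 samples by group; points are samples, lines are group means of 3, and the vertical axes do not start at 0. Exosc2, Exosc10 and Cnot4 are lowest in untransfected cells, Smg5 is highest with the ASO at 170.5, 166 and 166 CPM, and Cnot6 and Cnot6l are lowest with the ASO.

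Pan3, the regulatory subunit of the PAN2-PAN3 deadenylase, stood at 57.2, 56.5 and 55.3 CPM untransfected and rose with HiFi-RfxCas13d NTG to 62.1, 61.3 and 63.0, with DiCas7-11 NTG to 59.7, 64.5 and 61.2 and with the ASO to 63.0, 65.2 and 64.2 CPM. The log2 changes were 0.14 ± 0.040, 0.14 ± 0.040 and 0.19 ± 0.038 (edgeR adjusted p 0.0117, 0.0152 and 0.000244), and none of these groups overlapped the untransfected samples. With RfxCas13d NTG the change was 0.040 ± 0.040 and did not pass (adjusted p = 0.595). Pan2, the nuclease itself, passed in none of the 4, at 0.012, 0.083, -0.065 and -0.0012.

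Of the 13 decapping genes, 1 rose with the NTG crRNA of HiFi-RfxCas13d and 3 with that of DiCas7-11, and 3 rose and 1 fell with the ASO. With RfxCas13d NTG their log2 changes ran from -0.16 for Dcp1b to 0.17 for Dcp1a and did not pass. Dcp2, the decapping enzyme, rose with DiCas7-11 NTG from 104, 105 and 104 to 109, 111 and 115 CPM (0.10 ± 0.033, edgeR adjusted p = 0.0224) and with the ASO to 110.5, 111 and 112 CPM (0.093 ± 0.031, adjusted p = 0.0169). Lsm6, a ring subunit, went from 55.6, 54.6 and 60.9 CPM to 63.6, 62.0 and 66.1 with HiFi-RfxCas13d NTG (0.17 ± 0.048, adjusted p = 0.0121) and 59.9, 67.3 and 64.1 with DiCas7-11 NTG (0.17 ± 0.048, adjusted p = 0.0118), calls lost in 3 and 4 of 14 alternatives. Lsm1, the subunit that sets the cytoplasmic ring apart from the nuclear one, rose with DiCas7-11 NTG from 50.2, 46.4 and 46.5 to 54.1, 55.5 and 51.7 CPM (0.17 ± 0.057, adjusted p = 0.0298), a call lost in 5 of 14 alternatives. With the ASO, the scaffold Edc4 rose by 0.13 ± 0.044 and the helicase Ddx6 by 0.098 ± 0.028. Lsm5 was lower with the ASO, at 51.6, 52.3 and 49.3 against 53.8, 60.8 and 56.3 CPM (-0.16 ± 0.060, adjusted p = 0.0351), but the correction for coding length gave −0.017 (adjusted p = 0.837).

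The exonuclease Xrn2, which acts in the nucleus and ends transcription, rose with HiFi-RfxCas13d NTG from 229, 232 and 234 to 242, 247 and 246 CPM (0.079 ± 0.027, edgeR adjusted p = 0.0389). It did not pass in the other 3 comparisons (0.048, 0.0016 and -0.046), and Xrn1 passed in none (0.057, 0.018, 0.13 and -0.042). In the SKI complex, the scaffold Ttc37 rose with HiFi-RfxCas13d NTG from 76.0, 74.3 and 71.1 to 77.2, 84.4 and 81.8 CPM (0.14 ± 0.043, adjusted p = 0.0223). The helicase Skiv2l passed in none, with negative estimates in each (-0.17, -0.10, -0.082 and -0.11). Of the ribosome rescue genes, Pelo rose with the ASO from 43.7, 44.8 and 41.0 to 49.1, 48.8 and 46.8 CPM (0.16 ± 0.044, adjusted p = 0.00507), a value that the shared stretches above make uncertain, and Hbs1l gave -0.070 ± 0.029 (adjusted p = 0.0510).

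Genes of nonsense-mediated decay had the largest log2 estimate of the 51 in each of the 4 comparisons, Smg6 with the 3 effectors and Smg5 with the ASO. Of its 8 genes, 1, 3 and 5 rose with the NTG crRNAs of RfxCas13d, HiFi-RfxCas13d and DiCas7-11 and 5 rose with the ASO, and 0 fell. Smg5, an adaptor for phosphorylated UPF1, stood at 132, 138 and 132 CPM untransfected, 146, 149.7 and 138 with RfxCas13d NTG, 148, 143 and 147 with HiFi-RfxCas13d NTG and 149, 146 and 141 with DiCas7-11 NTG. The ASO samples, at 170.5, 166 and 166 CPM, were above every other sample of the experiment. Its log2 changes were 0.10 ± 0.034, 0.12 ± 0.033, 0.11 ± 0.034 and 0.32 ± 0.032 (edgeR adjusted p 0.0407, 0.0107, 0.0142 and 3.89e-09), and the RfxCas13d samples overlapped the untransfected ones. The call with RfxCas13d was lost in 5 of 14 alternatives (adjusted p up to 0.18).

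Smg6, the endonuclease of the pathway, stood at 42.1, 38.8 and 37.2 CPM untransfected. It rose with HiFi-RfxCas13d NTG to 52.4, 46.0 and 53.1 CPM, a change of 27.7% (log2 0.35 ± 0.075, edgeR adjusted p = 0.00104), and with DiCas7-11 NTG to 50.4, 56.4 and 47.9 CPM, 30.8% (0.39 ± 0.075, adjusted p = 0.000393). These were the largest log2 changes of any decay gene in those comparisons. The ASO samples were at 51.1, 47.6 and 44.3 CPM (0.27 ± 0.073, adjusted p = 0.00308), and the RfxCas13d NTG samples at 44.6, 47.6 and 45.2 CPM gave 0.22 ± 0.076, which did not pass by edgeR (adjusted p = 0.0646) and was called by DESeq2 and limma-trend. The standard error of Smg6 is over that of Smg5 in each comparison. That error comes from the fit to all samples, and Smg6 had lower counts than Smg5, so it does not measure the spread of replicates alone.

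Upf1, the helicase at the centre of the pathway, rose with DiCas7-11 NTG from 127, 130.2 and 131 to 143, 139 and 137 CPM (0.11 ± 0.042, edgeR adjusted p = 0.0478) and with the ASO to 144, 140.2 and 148 CPM (0.16 ± 0.040, adjusted p = 0.00176). Upf2, which activates UPF1, rose with DiCas7-11 NTG from 83.7, 80.4 and 79.0 to 86.8, 94.8 and 94.8 CPM (0.19 ± 0.040, adjusted p = 0.00114) and with the ASO to 87.3, 86.6 and 91.1 CPM (0.12 ± 0.039, adjusted p = 0.0112). Upf3a rose with HiFi-RfxCas13d and DiCas7-11 NTG by 0.14 ± 0.044 and 0.13 ± 0.045, while its paralog Upf3b, which binds the exon junction complex, passed in none. Smg8, a regulator of the SMG1 kinase that phosphorylates UPF1, rose with the ASO by 0.16 ± 0.051 (adjusted p = 0.0146), and its partner Smg9 gave -0.065 ± 0.066 (adjusted p = 0.458).

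Genes outside the 51 that act with this branch were read beside it. Of 10 transcripts known as targets of nonsense-mediated decay, 5 rose and 2 fell with the ASO, and 1, 3 and 1 rose with the NTG crRNA of RfxCas13d, HiFi-RfxCas13d and DiCas7-11 while 0, 1 and 1 fell. In the order RfxCas13d, HiFi-RfxCas13d, DiCas7-11 and ASO, 5.6%, 10.3%, 11.1% and 21% of all genes rose and 5.66%, 10.6%, 10.8% and 21.7% fell, and nothing particular to these lists is read from their counts. With the ASO the host genes of small nucleolar RNAs Snhg15 and Snhg12 rose by 1.02 ± 0.069 and 0.99 ± 0.070 on the log2 scale, and Ddit3, also a stress-response gene, by 0.77 ± 0.061 (edgeR adjusted p 1.30e-12, 3.81e-12 and 3.02e-11). The 2 that fell with the ASO were Gadd45b (-0.37 ± 0.14) and Tbl2 (-0.11 ± 0.043). Zfas1 fell with HiFi-RfxCas13d NTG (-0.19 ± 0.059) and with DiCas7-11 NTG (-0.27 ± 0.060). Of 9 genes of the exon junction complex and of translation termination, 1, 3, 5 and 1 rose in the 4 comparisons and 0 fell. Etf1, the release factor that reads stop codons, rose by 0.12 ± 0.028, 0.17 ± 0.028, 0.19 ± 0.028 and 0.11 ± 0.028. Of 49 cofactors and other decay enzymes tested, 5, 8, 8 and 15 rose and 3, 6, 7 and 6 fell in the same order. Among them the kinase gene Smg1 rose with the ASO by 0.54 ± 0.053 (adjusted p = 2.14e-09).

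Upstream sequence was read for Exosc2, Exosc10, Cnot4 and Smg5, the decay genes that passed as higher in each of the 4 comparisons with untransfected cells, and for Cnot6 and Cnot6l, which fell with the ASO. Each run below is the 200 bases before the RefSeq transcription start, written in the direction of transcription, on build GRCm38.p6 (a different build from the authors' GRCm39). Capitals mark, on either strand, the GC box GGGCGG, the CCAAT box CCAAT and the core TGACG of cyclic AMP response elements.
Exosc2 (chr2:31670515-31670714, plus strand): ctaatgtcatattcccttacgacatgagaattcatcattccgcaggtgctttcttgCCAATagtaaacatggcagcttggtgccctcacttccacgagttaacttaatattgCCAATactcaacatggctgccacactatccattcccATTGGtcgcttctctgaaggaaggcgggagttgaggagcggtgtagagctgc
Exosc10 (chr4:148558219-148558418, plus strand): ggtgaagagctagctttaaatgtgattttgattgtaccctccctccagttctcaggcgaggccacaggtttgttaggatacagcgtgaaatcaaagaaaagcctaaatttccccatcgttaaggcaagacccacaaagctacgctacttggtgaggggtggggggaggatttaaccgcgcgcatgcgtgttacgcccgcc
Cnot4 (chr6:35133738-35133937, minus strand): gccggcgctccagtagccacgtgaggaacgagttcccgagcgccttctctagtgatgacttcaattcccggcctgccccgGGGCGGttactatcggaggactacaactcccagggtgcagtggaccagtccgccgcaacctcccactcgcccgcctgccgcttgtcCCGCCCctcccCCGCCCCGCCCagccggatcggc
Smg5 (chr3:88336060-88336259, plus strand): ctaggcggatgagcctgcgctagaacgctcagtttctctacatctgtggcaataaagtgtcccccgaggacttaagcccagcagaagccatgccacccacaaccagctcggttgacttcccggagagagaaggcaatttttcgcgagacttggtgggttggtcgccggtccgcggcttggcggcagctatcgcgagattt
Cnot6 (chr11:49712723-49712922, minus strand): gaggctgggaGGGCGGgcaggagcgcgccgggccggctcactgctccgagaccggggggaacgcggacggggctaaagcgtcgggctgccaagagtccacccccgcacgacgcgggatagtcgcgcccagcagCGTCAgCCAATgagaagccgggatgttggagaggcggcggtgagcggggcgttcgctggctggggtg
Cnot6l (chr5:96161991-96162190, minus strand): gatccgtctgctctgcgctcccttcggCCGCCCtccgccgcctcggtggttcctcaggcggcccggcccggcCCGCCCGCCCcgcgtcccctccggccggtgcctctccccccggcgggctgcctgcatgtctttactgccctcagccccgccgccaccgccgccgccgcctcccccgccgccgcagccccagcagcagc
The runs differ in composition, from 47.5% GC upstream of Exosc2 and 51% upstream of Exosc10 to 73% for Cnot6 and 80.5% for Cnot6l. CCAAT occurs at 3 places upstream of Exosc2, while Exosc10 and Smg5 hold none of the marked letters. GGGCGG occurs upstream of Cnot4, Cnot6 and Cnot6l.

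Promoter sequence was at hand for 42 of the 51 genes. In these 200 bases GGGCGG, on either strand, was present for 27 of 42 (64.3%), against 31.3% of 27025 genes searched. CCAAT was present for 14 (33.3%, against 30%), the ETS core CCGGAAG for 6 (14.3%, against 6.45%) and TGACG for 8 (19%, against 15.8%). The full element TGACGTCA, which contains TGACG, was found in 0 of 42 (1.55% of all genes), and the TATA box TATAAA in 0 of 42 (10.6% of all genes). Median GC content was 62.5% for the decay genes and 53% over all genes, and a motif made of G and C is met more often in such sequence. The 27025 genes searched are not limited to the 13901 that passed the filter on counts, whereas all the decay genes passed it. The shares and GC content of the decay genes are therefore not set against expressed genes alone. These matches describe the letters in the window and were not tested.

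The comparison of mATXN2 with NTG crRNA asks what targeting added within an effector, and no decay gene passed the test in a single effector. Of the 51 genes, 0 passed with RfxCas13d, 0 with HiFi-RfxCas13d and 0 with DiCas7-11, against 1.39%, 0.295% and 0.942% of all genes. At an unadjusted p under 0.05 there were 9, 4 and 9 decay genes (17.6%, 7.84% and 17.6%), against 13.8%, 7.45% and 14% of all genes. DESeq2 called 0, 0 and 2 decay genes and limma-trend 0, 2 and 2. The log2 changes of the 51 genes had medians of 0.014, 0.0062 and -0.013, with medians over all genes of 0.0016, -0.00100 and -0.00098.

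The lowest unadjusted p-values with RfxCas13d were those of Cnot2, Xrn2 and Exosc10. Exosc10 was at 123, 121 and 121 CPM with NTG and 112, 115 and 118 with mATXN2 crRNA (-0.078 ± 0.034, edgeR adjusted p = 0.283). Cnot2 was at 177, 175 and 178 and 167, 171 and 167 CPM (-0.070 ± 0.028, adjusted p = 0.245), and Xrn2 at 241, 236 and 242 and 225, 234 and 228 CPM (-0.066 ± 0.027, adjusted p = 0.258). The 3 genes were lower with the mATXN2 crRNA and none passed.

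With HiFi-RfxCas13d the lowest were Pan3, Dcp2 and Cnot4. Pan3 was at 62.1, 61.3 and 63.0 CPM with NTG and 55.5, 58.4 and 55.8 with mATXN2 crRNA (-0.13 ± 0.039, edgeR adjusted p = 0.204). Dcp2 was at 106, 113 and 109 and 116, 119 and 117 CPM (0.097 ± 0.031, adjusted p = 0.313), and Cnot4 at 80.9, 77.6 and 76.4 and 74.3, 73.6 and 72.8 CPM (-0.090 ± 0.036, adjusted p = 0.522). Pan3 and Dcp2 are the 2 genes that limma-trend called.

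With DiCas7-11 the lowest were Cnot6, Xrn2 and Pan3, all lower with the mATXN2 crRNA. Cnot6 was at 542, 575 and 576 CPM with NTG and 510.1, 532 and 528 with mATXN2 crRNA (-0.11 ± 0.029, edgeR adjusted p = 0.0579). Xrn2 was at 225, 239 and 232 and 211, 216 and 221 CPM (-0.10 ± 0.027, adjusted p = 0.0632), and Pan3 at 59.7, 64.5 and 61.2 and 57.6, 55.6 and 58.9 CPM (-0.11 ± 0.039, adjusted p = 0.184). Cnot6 and Xrn2 are the 2 genes that DESeq2 and limma-trend called. Without DiCas7-11 NTG replicate 1 the count was 2, and without DiCas7-11 NTG replicate 3 it was 1.

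Averaged over the 3 effectors with equal weight, which lowers the standard error, 1 decay gene rose and 2 fell with the mATXN2 crRNA (1.96% and 3.92% of the 51, against 2.95% and 2.24% of all genes). Xrn2 fell (log2 -0.069 ± 0.016, or -4.66%, edgeR adjusted p = 0.00778) and so did Pan3 (-0.093 ± 0.023, or -6.24%, adjusted p = 0.0130), while Dcp2 rose by 0.068 ± 0.018, or 4.86% (adjusted p = 0.0229). The single estimates were -0.066, -0.037 and -0.10 for Xrn2, -0.034, -0.13 and -0.11 for Pan3, and 0.068, 0.097 and 0.041 for Dcp2, in the order RfxCas13d, HiFi-RfxCas13d and DiCas7-11. The genes were picked by the average of these same estimates, so their shared sign is not separate evidence. The 9 mATXN2 samples overlapped the 9 NTG samples in each gene. The count was 6 without DiCas7-11 NTG replicate 1 and 5 without DiCas7-11 NTG replicate 3, and Dcp2 lost its call in 9 of 26 alternatives.

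**Figure D4:**
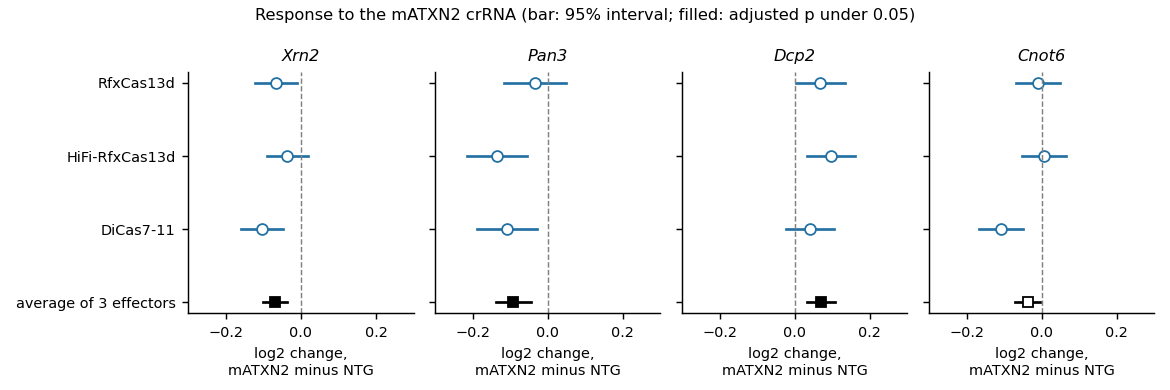
log2 change of Xrn2, Pan3, Dcp2 and Cnot6, mATXN2 minus NTG, for each effector (circles) and averaged over 3 effectors (squares), with 95% intervals; filled symbols have an adjusted p under 0.05. The averages of Xrn2, Pan3 and Dcp2 are -0.069, -0.093 and 0.068, and no single effector is filled.

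The difference between effectors in this response was tested directly. Of the 51 genes, 0 passed for HiFi-RfxCas13d against RfxCas13d, 0 for DiCas7-11 against RfxCas13d and 0 for DiCas7-11 against HiFi-RfxCas13d, where 0%, 0% and 0% of all genes passed, and DESeq2 and limma-trend also called 0 decay genes in each. At an unadjusted p under 0.05 there were 0, 2 and 2 decay genes, against 6.15%, 7.8% and 7.4% of all genes. Cnot6 had the lowest p in both comparisons that involve DiCas7-11, with a difference of -0.10 (95% interval -0.18 to -0.018) from RfxCas13d and -0.11 (-0.20 to -0.032) from HiFi-RfxCas13d (adjusted p = 0.616 and 0.631 by edgeR). For HiFi-RfxCas13d against RfxCas13d the lowest p was that of Exosc10, with a difference of 0.094 (-0.0022 to 0.19, adjusted p = 0.815). The intervals of the Cnot6 differences exclude 0 and are not adjusted for the 13901 genes tested, and neither difference passed after that adjustment.

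A further 4 contrasts were chosen after the data had been seen. The NTG samples averaged over the effectors had 18 of 51 decay genes higher than untransfected cells and 0 lower (35.3%, against 12.4% higher and 12.7% lower over all genes), with Smg6 at 0.32 ± 0.063, Dis3 at 0.21 ± 0.051, Cnot4 at 0.20 ± 0.031 and Exosc2 at 0.19 ± 0.026. That count was 11, 10 and 11 without untransfected replicate 1, 2 and 3. Between effectors, HiFi-RfxCas13d NTG and RfxCas13d NTG differed in 0 decay genes (0.619% of all genes), with 4 at an unadjusted p under 0.05 (9.94% of all genes) and 0 by DESeq2 and limma-trend. DiCas7-11 NTG and RfxCas13d NTG differed in 1 (3.39% of all genes): Exosc9, at 56.9, 64.3 and 64.2 against 55.0, 54.4 and 56.6 CPM (0.16 ± 0.043, edgeR adjusted p = 0.0311). Leaving out any of 5 of those 6 libraries took that count to 0, and leaving out DiCas7-11 NTG replicate 1 took it to 3.

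The fourth contrast set the ASO samples against the averaged NTG samples, without the untransfected group. The sides differ in plasmid, effector and oligonucleotide at once. They may also differ in transfection, since the delivery of the ASO is not stated, and no group received a control oligonucleotide. Here 5 decay genes were higher and 14 lower (9.8% and 27.5% of the 51, against 19.5% and 20.9% of all genes). Smg5 remained higher, by 0.21 ± 0.025 (edgeR adjusted p = 1.44e-07), and so did the decapping scaffold Edc4 by 0.15 ± 0.034 (adjusted p = 0.000971) and Exosc10 by 0.089 ± 0.026 (adjusted p = 0.00609). Pan3 and Pelo were higher by 0.081 ± 0.030 and 0.090 ± 0.035, calls lost in 7 and 9 of 19 alternatives. Cnot6l and Cnot6 were lower, at -0.23 ± 0.030 and -0.22 ± 0.023 (adjusted p = 4.31e-07 and 8.01e-09), and so was Cnot10 at -0.15 ± 0.038 (adjusted p = 0.00213). Both exonucleases were lower, Xrn1 at -0.11 ± 0.038 and Xrn2 at -0.089 ± 0.022, as were Dis3l, Exosc1, Hbs1l, Upf3a, Cnot7 and the ring subunits Lsm2, Lsm3, Lsm5 and Lsm6. Of these, Upf3a lost its call in 12 of 19 alternatives and Lsm2 in 11, and of the 19 genes called 8 passed in all. Smg6, Exosc2 and Cnot4, which had passed against untransfected cells, gave -0.046 ± 0.056, -0.0046 ± 0.024 and 0.00021 ± 0.028 against the NTG samples and did not pass (adjusted p = 0.542, 0.897 and 1.00). The split between higher and lower genes changed with the correction for coding length: after it 9 were higher and 10 lower, and Lsm6 gave −0.022 (adjusted p = 0.657) and Lsm3 −0.050 (adjusted p = 0.266).

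**Figure D5:**
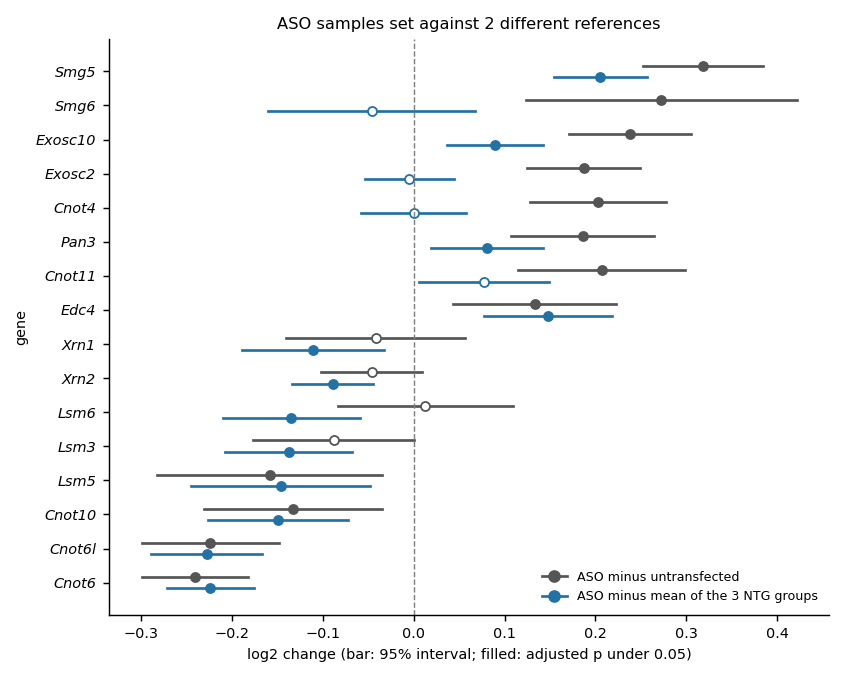
log2 change of 16 decay genes in the ASO samples against untransfected cells (grey) and against the mean of the 3 NTG groups (blue), with 95% intervals; filled symbols have an adjusted p under 0.05. Smg5, Cnot6 and Cnot6l lie on the same side with either reference, at 0.32 and 0.21, -0.24 and -0.22, and -0.22 and -0.23, whereas Smg6 is at 0.27 and -0.046.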

How the data were processed

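RNA-seq reads of 24 Neuro2A samples were quantified by the authors with Salmon (version 1.5.2 per the labels) on the mouse transcriptome (GRCm39) and summed to genes with tximport's lengthScaledTPM method; the deposited values are expected counts that are not normalized for library size. Value columns were matched to samples by effector or treatment, arm and replicate number, since the column codes of both arms and of the control groups differ from the sample titles. Expected counts were rounded, a gene was kept where 3 or more samples reached 0.5 CPM (13901 genes), and edgeR's quasi-likelihood test (version 4.0.16, R 4.3.3) was run after TMM normalization in a single model of the 8 groups. Benjamini-Hochberg adjustment was made over all 13901 genes within each comparison (threshold 0.05). CPM in the text are TMM-normalized. Errors are standard errors of log2 changes from that fit or SD over 3 samples, and total counts (12665725 to 22504999) set the counting error.

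The decay genes, their classes and the other gene lists were chosen with earlier results of these data known. Values per sample are given for genes past the threshold (at most 10 rises and 10 falls a comparison), for the 3 lowest p-values where fewer than 3 passed, and for paralogs and class extremes in levels per length. Lengths came from GENCODE M21 (GRCm38), matched by Entrez identifier for all 51 decay genes and 87.2% of tested genes for coding length, and promoters from RefSeq. Alternatives were DESeq2 (1.42.0), its size factors in edgeR, limma-trend (3.58.1, prior count 3, adjusted over 10 comparisons), no filter, only the samples compared, a replicate block, a lowess correction for coding length (span 0.3), adjustment over 11 contrasts together, and leaving out each library. The scripts were tested on simulated data. Values of some genes outside the 51 are not reported here.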

Additional observations from a re-analysis of the deposited data

How the results depend on the processing

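Across the alternatives, for the decay genes named by rule in each comparison, 1344 values kept their direction and their side of the threshold, 123 kept their direction but no longer passed, 16 kept it and newly passed, and none changed sign; the decay genes that were neither called nor named were not followed. Counts of called decay genes moved by over 1.5 times as follows. For mATXN2 against NTG, HiFi-RfxCas13d went from 0 to 2 with limma-trend and to 1 with adjustment over 11 contrasts, and DiCas7-11 from 0 to 2 with no filter, DESeq2, limma-trend, the replicate block and adjustment over 11 contrasts. RfxCas13d NTG against untransfected cells went from 5 to 9 with the coding length correction, and DiCas7-11 NTG from 19 to 6 with only the samples compared. The contrast of the NTG groups of DiCas7-11 and RfxCas13d went from 1 to 0 with only the samples compared and to 2 with the replicate block. Causes were not tested. The fall of Atxn2 with DiCas7-11 was −0.200 on the log2 scale in each fit but did not pass with only the samples compared.

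Leaving out 1 library at a time gave 0 to 2 calls for DiCas7-11 mATXN2 against NTG, 2 to 6 for the average over effectors, 3 to 5 for RfxCas13d NTG, 9 to 16 for DiCas7-11 NTG, 10 to 21 for the averaged NTG samples against untransfected cells, and 0 to 3 for DiCas7-11 NTG against RfxCas13d NTG. The Atxn2 change with DiCas7-11 was −0.219 to −0.185. The other counts stayed within 1.5 times. Replicate numbers did not mark pairs: deviations of same-numbered samples had correlations of −0.0626 to 0.0467. With the replicate block the average over effectors went from 3 to 5 called genes. With 3 samples a group, the median standard error of the decay genes was 0.0466 on the log2 scale for RfxCas13d NTG and 0.0471 for DiCas7-11 NTG, which limits what could be resolved.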

Other observations

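Among the 49 cofactors and other decay enzymes outside the 51 genes, several changed with the ASO against untransfected cells. Btg2, an antiproliferative gene whose protein binds the CNOT7 and CNOT8 deadenylases, fell (log2 -0.87 ± 0.096, edgeR adjusted p = 1.85e-08), and it also fell with HiFi-RfxCas13d NTG (-0.45 ± 0.096) and DiCas7-11 NTG (-0.52 ± 0.098). Lsm8, the subunit that makes the LSM ring nuclear, fell with the ASO (-0.41 ± 0.056), as did Lsm14b, a decapping-related RNA-binding protein (-0.37 ± 0.030), and Pabpc1, the main cytoplasmic poly(A)-binding protein (-0.19 ± 0.024). Zfp36, which recruits CCR4-NOT to AU-rich mRNAs, rose by 0.61 ± 0.15, the argonaute Ago3 by 0.36 ± 0.062 and Tob2, an adaptor between PABPC1 and CCR4-NOT, by 0.39 ± 0.065. These genes were picked from their list after their values were seen, and 21% and 21.7% of all genes rose and fell in that comparison.

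With the mATXN2 crRNA averaged over the effectors, 3 of the 49 rose and 3 fell, where 2.95% and 2.24% of all genes did. Smg1, the kinase of nonsense-mediated decay, rose by 0.19 ± 0.032 (edgeR adjusted p = 0.000266), Ago2 by 0.12 ± 0.025 and Tnrc6b, a scaffold of microRNA silencing, by 0.12 ± 0.027. Tut4, which adds uridines to RNA ends, Ascc3 and Pabpc1 fell, with log2 changes of -0.088 ± 0.021, -0.079 ± 0.019 and -0.050 ± 0.014.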
